A study of Mus musculus with 10 samples.

Results

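The ADAMTS metalloproteinases are described here in liver sinusoidal endothelial cells, the cells that line the liver's capillaries, from mice with and without a deletion of Gata4. They were picked from the ADAMTS family with the knockout and control array values of this comparison in view, so their differences between groups are a description, and counts of them past a threshold support nothing about the family. The choice named 10 genes, of which 9 (Adamts1, Adamts4, Adamts5, Adamts7, Adamts9, Adamts10, Adamts12, Adamts13 and Adamts15) had a named row among 24704 named genes. The probe set of the tenth, Adamts2, has no gene symbol in the annotation used. It was left out with the other rows that lack a symbol, so Adamts2 was not analysed here.

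Arrays came from 5 Gata4-LSEC-KO samples and 5 control samples, the controls being siblings labelled WT. The knockout combines a Clec4g-icre transgene (C57BL/6N-Tg(Clec4g-icre)1.1Sgoe) with floxed Gata4 (STOCK Gata4tm1.1Sad/J). The Cre recombinase is therefore driven by control sequences of Clec4g, a gene of sinusoidal endothelium, and the labels do not say which of the alleles the controls carried or the age and sex of the mice. Each array holds RNA from the pooled livers of 3 mice, taken after collagenase digestion with magnetic beads against CD146, so the spread between arrays is a spread between pools. Gata4 itself read 8.59 ± 0.24 in knockout arrays and 8.71 ± 0.15 in control arrays (SD, n = 5 each, adjusted p = 0.742 by limma). Where its probes lie relative to the deleted part is not given, so this value does not check the labels.

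The 12 endothelial identity markers, among them Pecam1, Cdh5, Stab2 and Clec4g, averaged 10.6 to 11.1 in the knockout arrays and 10.8 to 11.1 in the control arrays on the log2 scale, where the median of each array was 3.71. Of the 12, 2 fell in the knockout, Clec4g itself (-0.76 ± 0.14, adjusted p = 0.0207 by limma) and Mrc1 (-0.57 ± 0.13, adjusted p = 0.044 by limma), and 0 rose. Control replicate 1 stood apart, with correlations across genes of 0.920 to 0.944 with the other arrays, against 0.969 to 0.988 among those 9. For the 9 genes and the pathway genes named by the rule, the value without it is given where it changed a call, turned a sign or moved a difference by over 1.5 times. All array values below are log2 RMA values, and a difference is the knockout mean minus the control mean with its standard error (SE). In such preparations fewer cells of a type and less RNA per cell cannot be told apart.

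ADAMTS proteins are secreted zinc proteases that carry thrombospondin type 1 repeats behind the protease domain and act on extracellular matrix. They are made as precursors, many of which are cut by proprotein convertases such as furin, and the tissue inhibitor TIMP3 blocks several of the proteases. The family divides by substrate into proteoglycanases, which cut versican and aggrecan, procollagen N-proteinases, enzymes that act on cartilage oligomeric matrix protein (COMP), enzymes of fibrillin microfibrils, and ADAMTS13, which cuts von Willebrand factor and is known in the liver mainly as a product of stellate cells.

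The promoter windows of 4 of the 9 measured genes, Adamts1, Adamts9, Adamts12 and Adamts13, were found in a RefSeq-based table of the mouse build GRCm38.p6, each running from 250 bases before to 50 bases after an annotated start. The windows of Adamts9, the gene with the largest difference between groups, and of its relative Adamts1 are shown 5′ to 3′, with every GGGCGG or its reverse complement in capitals. That of Adamts9 lies at chr6:92943485-92943784 on the minus strand and that of Adamts1 at chr16:85803064-85803363 on the minus strand.
Adamts9: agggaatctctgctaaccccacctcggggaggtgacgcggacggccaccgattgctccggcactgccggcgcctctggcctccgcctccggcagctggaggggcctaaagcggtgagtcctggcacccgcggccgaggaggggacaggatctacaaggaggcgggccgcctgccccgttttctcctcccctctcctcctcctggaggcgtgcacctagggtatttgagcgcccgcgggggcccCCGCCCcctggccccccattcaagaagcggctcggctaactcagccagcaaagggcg
Adamts1: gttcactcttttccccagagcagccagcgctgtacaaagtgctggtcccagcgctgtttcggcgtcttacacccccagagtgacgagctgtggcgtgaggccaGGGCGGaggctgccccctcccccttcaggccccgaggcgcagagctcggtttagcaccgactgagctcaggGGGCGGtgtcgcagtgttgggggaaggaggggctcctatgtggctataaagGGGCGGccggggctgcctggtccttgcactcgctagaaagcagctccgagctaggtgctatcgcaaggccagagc

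None of the 4 windows held a GATA hexamer, searched on both strands as AGATAA and as the same letters with T at the start, G at the end, or both, which 29.8% of all 32851 windows hold. The shorter core GATAA, which overlaps some of these hexamers, was likewise found in 0 of the 4 and in 25.4% of all windows. GGGCGG stood 3 times in the window of Adamts1 and once each in those of Adamts9 and Adamts13, and 35.7% of all windows hold it. The E-box CACGTG (7.15% of all windows) and the AP-1 motif TGANTCA (7.81%) were found in none of the 4, and GGAATG (14.7%) stood once, in the window of Adamts13. The Adamts9 and Adamts1 windows were rich in CpG, with 25 and 18 CpG dinucleotides, while those of Adamts12 and Adamts13 had 7 and 2, beside a median of 7 over all windows. A match or its absence describes only the letters in these windows.

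Among the proteoglycanases, Adamts9, which cuts versican and is the mouse counterpart of the worm protease GON-1, differed most. It read 7.54, 7.32, 7.42, 7.23 and 7.90 in knockout replicates 1 to 5, against 4.98, 5.57, 5.20, 5.54 and 5.29 in control replicates 1 to 5. The groups were separated by a gap of 1.66 between the lowest knockout and the highest control array, with little spread inside either group. The difference was 2.17 ± 0.16 (SE), a 4.49-fold higher array value in the knockout, and it was 2.08 ± 0.15 without control replicate 1.

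Adamts5, an aggrecanase, also read higher in every knockout array than in any control array, but with a narrow margin. Its values were 5.35, 5.61, 5.62, 4.85 and 5.03 in knockout replicates 1 to 5 and 3.16, 4.61, 3.84, 4.79 and 4.36 in control replicates 1 to 5. The gap between the groups was only 0.06, between knockout replicate 4 and control replicate 4, and control replicate 1 was the lowest array of all. The difference of 1.14 ± 0.29 (2.20-fold) became 0.89 ± 0.22 without that array.

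Adamts4, the other classical aggrecanase, read 4.10, 3.77, 4.50, 4.04 and 4.46 in knockout replicates 1 to 5, against 3.57, 3.89, 3.34, 3.48 and 3.24 in control replicates 1 to 5. The groups overlapped in a single pair of arrays, knockout replicate 2 lying below control replicate 2. The difference was 0.67 ± 0.17 (1.59-fold). The control mean of 3.51 lay under the array median, so the fold describes array signal and need not equal the change in RNA.

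Adamts1, a versican- and aggrecan-cutting enzyme that can also bind VEGF, showed a smaller difference and more overlap. It read 8.44, 7.82, 8.23, 7.82 and 8.39 in knockout replicates 1 to 5, against 7.36, 7.76, 7.54, 7.83 and 8.004 in control replicates 1 to 5. Knockout replicates 2 and 4 lay among the control values, and the other 3 knockout arrays lay above them. The difference was 0.44 ± 0.17 (1.36-fold), and 0.36 ± 0.16 without control replicate 1. Adamts1 and Adamts5 are next to each other among the protein-coding genes of chromosome 16. Their differences have the same sign, but 8 of the 9 genes share it.

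Adamts15, the last measured proteoglycanase among the 9, read 3.43, 3.18, 3.23, 3.43 and 3.32 in knockout replicates 1 to 5, against 3.54, 3.03, 3.50, 3.35 and 3.15 in control replicates 1 to 5. The groups overlapped throughout, the difference was 0.00 ± 0.12 (0.06 ± 0.12 without control replicate 1), and both means lay under the array median, where a change in RNA may leave little trace. Its neighbour on chromosome 9, the related protease gene Adamts8, averaged 2.48 ± 0.15 in knockout arrays and 2.35 ± 0.19 in control arrays (SD, n = 5 each), again under the array median.

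**Figure D1:**
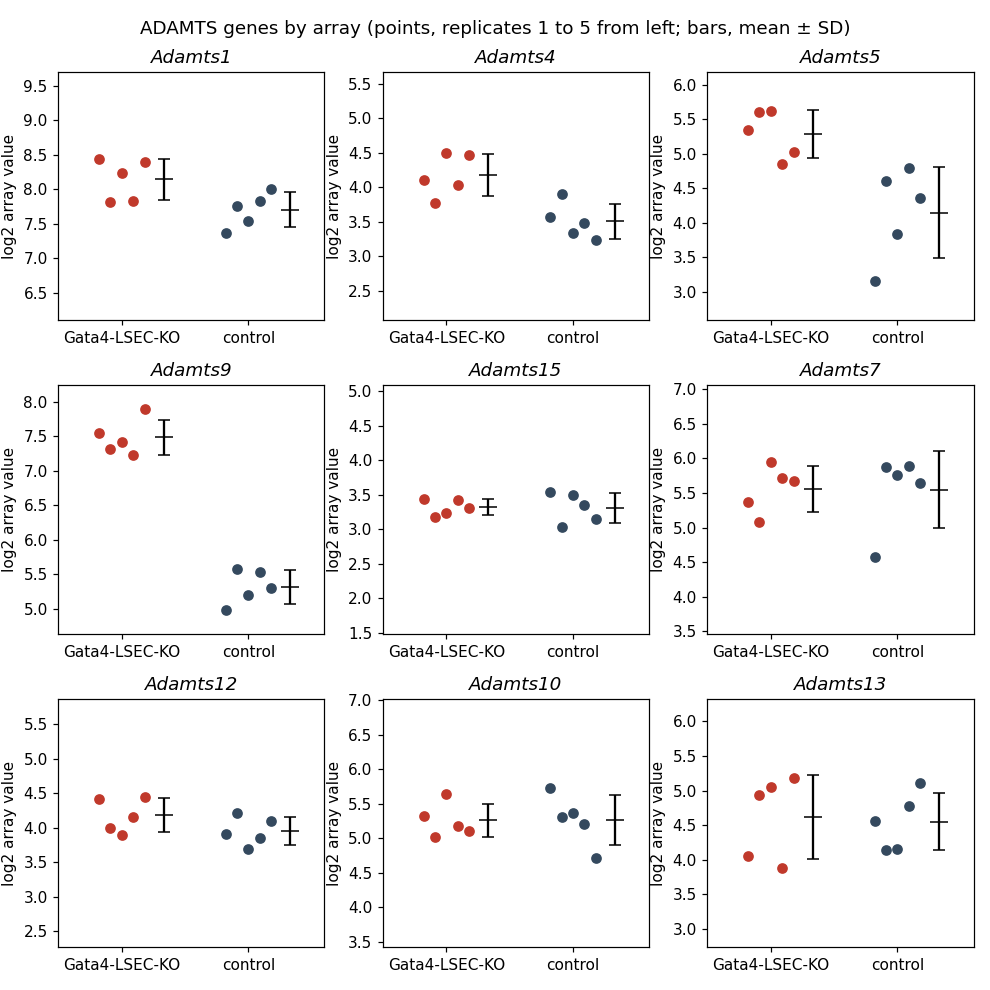
Log2 array values of the 9 measured ADAMTS genes in 5 Gata4-LSEC-KO arrays (left, red) and 5 control arrays (right, blue), with the mean and SD of each group as bars; every panel spans the same number of log2 units. Adamts9 and Adamts5 do not overlap between the groups, Adamts4 overlaps in a single pair of arrays, and the other 6 genes overlap more widely.

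Adamts7 and Adamts12 act on COMP, a pentameric matrix protein. Adamts7 read 5.37, 5.08, 5.94, 5.72 and 5.67 in knockout replicates 1 to 5, against 4.58, 5.88, 5.76, 5.89 and 5.65 in control replicates 1 to 5. Control replicate 1 was far below the other controls. The difference was 0.01 ± 0.25 with that array and -0.24 ± 0.16 without it. So close to 0, the sign also turned without knockout replicate 3 (-0.09), 4 (-0.03) or 5 (-0.02). Adamts12 read 4.41, 4.00, 3.89, 4.16 and 4.44 in knockout replicates 1 to 5, against 3.91, 4.22, 3.69, 3.85 and 4.10 in control replicates 1 to 5. The groups overlapped, and the difference was 0.23 ± 0.14.

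Adamts10, a protease of fibrillin microfibrils, read 5.33, 5.03, 5.65, 5.18 and 5.11 in knockout replicates 1 to 5, against 5.73, 5.31, 5.37, 5.20 and 4.72 in control replicates 1 to 5. Both the highest and the lowest array were controls, and the difference was -0.01 ± 0.18, or 0.11 ± 0.16 without control replicate 1. Adamts13 varied most inside the knockout group. It read 4.06, 4.93, 5.05, 3.87 and 5.18 in knockout replicates 1 to 5, against 4.57, 4.13, 4.16, 4.78 and 5.10 in control replicates 1 to 5. Knockout replicates 1 and 4 were its 2 lowest arrays, and the difference was 0.07 ± 0.29. For Adamts7, Adamts10, Adamts13 and Adamts15 the SE exceeded the difference, which bounds the size of a change loosely and does not show equal levels.

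The whole-table limma fit called 1 of the 9 genes, Adamts9, at an adjusted p under 0.05, where 2.14% of all genes were called. The values of the groups did not overlap for 2 of the 9, Adamts9 and Adamts5, and for 4.93% of all genes. Because the genes were chosen with this contrast known, neither count is read as a result about the family. The median difference of the 9 was 0.23, beside -0.02 over all genes tested, and 8 of the 9 differences were above 0, as were 11077 of the 24704 over all genes. Of the 8, those of Adamts7, Adamts13 and Adamts15 were smaller than their SE and took both signs when 1 array was left out.

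The other 9 ADAMTS genes with a named row, which the same choice left out, are given over all 10 arrays. Without Adamts2 the family is not complete here. None of them was called by the fit, at the same background of 2.14%, and their median difference was -0.06 with a range of -0.29 to 0.43. Adamts6, the closest relative of Adamts10, did not overlap between groups and averaged 3.20 ± 0.18 in knockout arrays and 2.77 ± 0.14 in control arrays (SD, n = 5 each), both under the array median. The procollagen N-proteinase gene Adamts14 lay on the other side, at 4.07 ± 0.22 in knockout arrays and 4.36 ± 0.09 in control arrays (SD, n = 5 each). Its partner Adamts3 differed by -0.09 ± 0.13. Adamts16 differed by 0.32 ± 0.16 and its relative Adamts18 by 0.18 ± 0.19. The remaining pair of relatives, Adamts17 and Adamts19, differed by -0.06 ± 0.19 and -0.12 ± 0.13, and Adamts20, the closest relative of Adamts9, by -0.09 ± 0.10. The means of 8 of these 9 genes, all but Adamts14, lay under the array median in both groups.

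**Figure D2:**
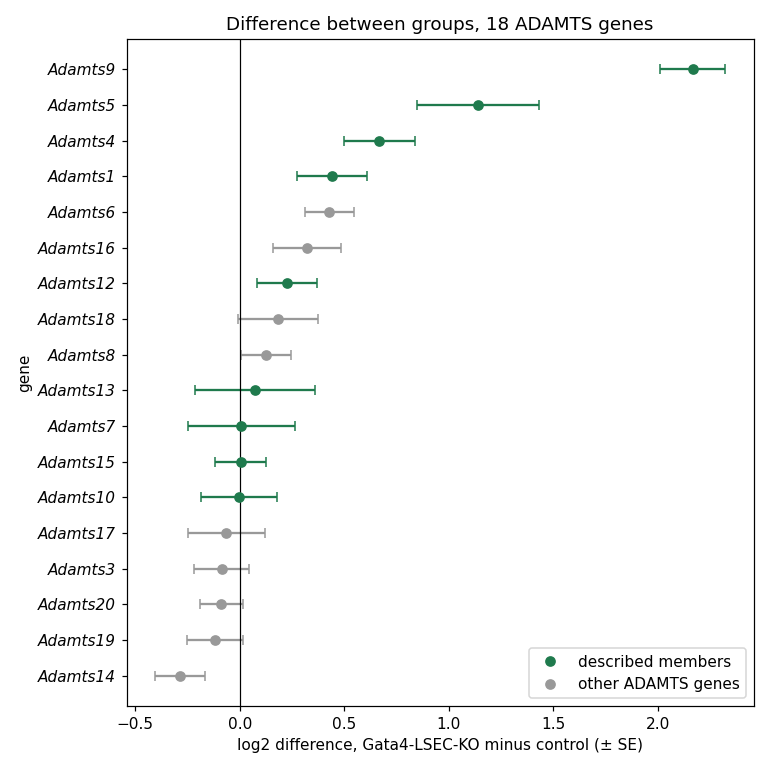
Difference of group means (Gata4-LSEC-KO minus control, log2 units, bars ± SE) for the 18 ADAMTS genes with a named row, which excludes Adamts2. The 9 described genes are in green and the other 9 in grey. Adamts9 at 2.17 and Adamts5 at 1.14 lie farthest from 0, and the lowest is Adamts14 at -0.29.

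The arrays also measured what these proteases act on and what acts on them, in 10 lists that named 82 genes, 79 of them measured. Of the 79, 5 rose and 1 fell in the knockout by limma (adjusted p under 0.05), against 2.14% of all genes called, with a list median of 0.10 beside -0.02 for all genes. The count was 12 without control replicate 1, where 737 of all genes were called, against 529 with that array. The lists were chosen with earlier results of these data known. The plot of these lists shows where the 6 lie.

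Genes for the substrates of the proteoglycanases came first. Of 8 genes for hyaluronan-binding proteoglycans and their link proteins, 0 passed the threshold by limma (1 at an unadjusted p under 0.05), and their median was -0.09. The link protein genes Hapln2 (-0.43 ± 0.17, adjusted p = 0.293 by limma) and Hapln4 (-0.32 ± 0.18, adjusted p = 0.513 by limma) had the smallest p in the list. Without control replicate 1 they differed by -0.27 ± 0.11 and -0.15 ± 0.12. Versican, Vcan, which is outside the naming rule and was looked up as the shared substrate, averaged 2.68 ± 0.30 in knockout arrays and 2.47 ± 0.19 in control arrays (SD, n = 5 each), both under the array median.

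Of 11 genes in the procollagen list 2 rose, both for proteinases that cut procollagen at the C-terminal end, opposite to the end the ADAMTS N-proteinases cut. Tll1 (tolloid-like 1) read 4.29, 4.34, 4.34, 4.20 and 3.78 in knockout replicates 1 to 5, against 2.79, 3.15, 2.94, 3.25 and 2.88 in control replicates 1 to 5, without overlap. It rose by 1.19 ± 0.14 (2.27-fold, adjusted p = 0.00108 by limma). The control mean of Tll1, 3.00, lay under the array median, so the fold describes array signal and need not equal the change in RNA. Bmp1, the founding C-proteinase, read 5.79, 5.33, 5.22, 5.65 and 5.08 in knockout replicates 1 to 5, against 4.61, 4.67, 4.35, 4.45 and 4.21 in control replicates 1 to 5, also without overlap. It rose 1.95-fold (0.96 ± 0.15, adjusted p = 0.00752 by limma), and its call ended with the dissociation stress list mean as a covariate (adjusted p = 0.0512 by limma). The other 9 did not pass. Col1a1, the type I collagen gene that also stands in the stellate and fibroblast marker list and was named after its values were seen, differed by 1.23 ± 0.33 (adjusted p = 0.0951 by limma).

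In the list around ADAMTS13, its substrate gene Vwf rose and F8, whose product Vwf carries in blood, fell, while 6 of 8 did not pass. Vwf read 8.77, 9.16, 9.35, 8.80 and 9.38 in knockout replicates 1 to 5, against 8.18, 8.55, 8.24, 7.67 and 7.72 in control replicates 1 to 5. It was 2.02-fold higher (1.02 ± 0.19, adjusted p = 0.0207 by limma) beside the 0.07 ± 0.29 of Adamts13. The call of Vwf was lost when knockout replicate 2, knockout replicate 3, control replicate 4 or control replicate 5 was left out (adjusted p at most 0.0612 by limma) and with the dissociation stress covariate (0.114). That of F8 (-0.65 ± 0.15, adjusted p = 0.047 by limma) was lost in 9 of the 10 leave-outs (at most 0.116), control replicate 1 being the exception, and with the stellate (0.0657) and dissociation stress (0.188) list means as covariates.

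Among 13 measured microfibril genes 1 passed, Fbln2, which encodes the matrix glycoprotein fibulin 2 and read 8.001, 8.31, 8.65, 8.36 and 8.70 in knockout replicates 1 to 5, against 7.06, 7.51, 7.25, 6.43 and 6.34 in control replicates 1 to 5. The groups did not overlap, and Fbln2 was 2.80-fold higher (1.49 ± 0.23, adjusted p = 0.00666 by limma). Of 5 genes for COMP and the thrombospondins 0 passed by limma (1 at an unadjusted p under 0.05). Thbs1 differed by 1.00 ± 0.33 (adjusted p = 0.187 by limma) and Thbs3 by -0.47 ± 0.25 (adjusted p = 0.465 by limma), or -0.25 ± 0.18 without control replicate 1.

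Of 4 proprotein convertases, Pcsk5 rose 1.47-fold (0.55 ± 0.09, adjusted p = 0.00874 by limma), with a control mean of 3.27 under the array median. Furin, named outside the rule as a convertase that cuts many ADAMTS precursors, differed by 0.21 ± 0.12 (adjusted p = 0.492 by limma). Of 8 inhibitors and clearance receptors 0 passed by limma (4 at an unadjusted p under 0.05). Timp2 was nearest among them at -0.90 ± 0.21 (adjusted p = 0.0574 by limma), and 5 settings turned its call. It passed without control replicate 1 (adjusted p = 0.00586 by limma), with array weights (0.00266), the intensity trend (0.0426), the filter on dim genes (0.0379) and the stellate list mean as covariate (0.00147). Sdc4, a syndecan, differed by 1.07 ± 0.28 (adjusted p = 0.0797 by limma). It passed without knockout replicate 3 or 5 (adjusted p = 0.0489 and 0.0481 by limma) and with array weights (0.0275). Timp3, the main tissue inhibitor of aggrecanases and also outside the rule, differed by 0.22 ± 0.14 (adjusted p = 0.544 by limma).

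Of 4 enzymes that glycosylate thrombospondin repeats 0 passed by limma (0 also at an unadjusted p under 0.05), with Dpy19l3 at -0.42 ± 0.27 (adjusted p = 0.564 by limma, but -0.72 ± 0.11 and 0.00532 without control replicate 1, and 0.0272 with array weights) and Dpy19l1 at -0.11 ± 0.12 (adjusted p = 0.751 by limma). Of 7 ADAMTS-like genes, whose products lack a protease domain, 0 passed by limma (0 also at an unadjusted p under 0.05), the smallest p being those of Thsd4 (0.23 ± 0.12, adjusted p = 0.443 by limma) and Adamtsl3 (0.19 ± 0.14, adjusted p = 0.594 by limma), the second at 0.09 ± 0.11 without control replicate 1. Of 11 genes of the membrane-bound ADAM family, not all of which encode active proteases, 0 passed by limma (4 at an unadjusted p under 0.05). Adam23 was at -0.59 ± 0.15 (adjusted p = 0.0853 by limma, 0.0143 without control replicate 1 and 0.00634 with array weights) and Adam33 at 0.45 ± 0.16 (adjusted p = 0.241 by limma).

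**Figure D3:**
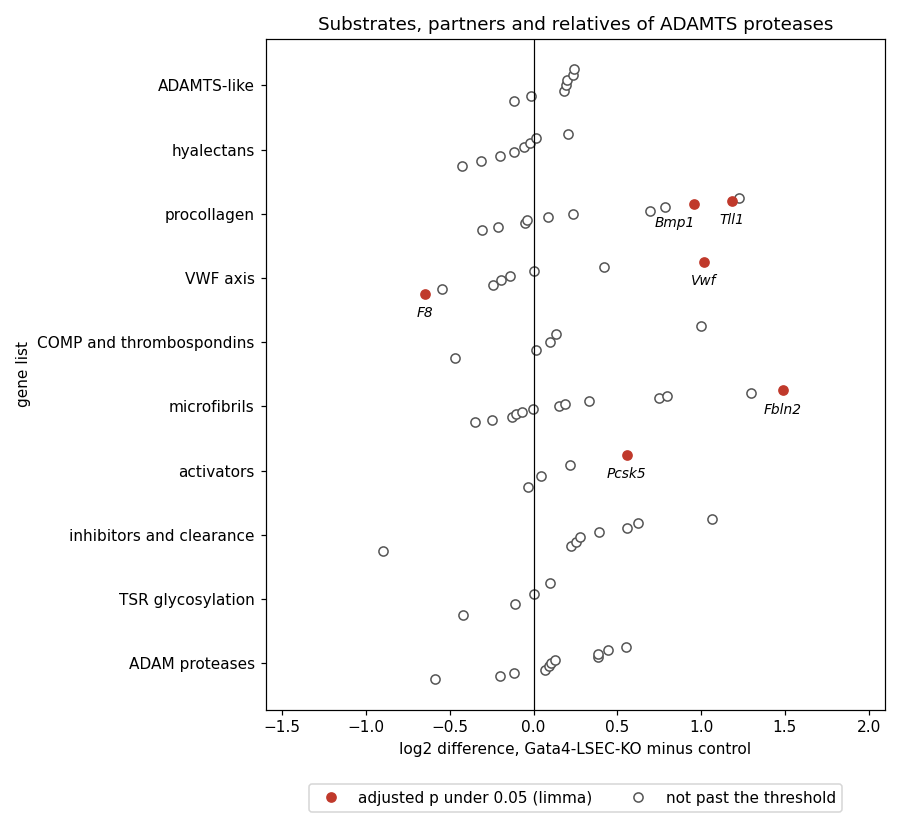
Difference of group means (Gata4-LSEC-KO minus control, log2 units) for 79 genes in 10 lists of substrates, partners and relatives, 1 point per gene; filled points passed an adjusted p of 0.05 by limma. The 6 filled points are Tll1, Bmp1, Vwf, Fbln2 and Pcsk5 above 0 and F8 below 0.

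ADAMTS genes are also transcribed in other liver cells, so markers of those cells were set beside them. The summed log2 value of the 15 stellate and fibroblast markers ran from 90.6 to 117 in knockout arrays and from 77.3 to 109 in control arrays, and 0 of the 15 passed by limma (5 at an unadjusted p under 0.05). The 8 neutrophil markers summed to 31.9 to 45.9 in knockout arrays and 22.3 to 26.9 in control arrays, without overlap, and 5 of the 8 were higher by limma. The 5 measured of 8 cholangiocyte markers summed to 22.0 to 31.5 and 18.1 to 21.6 in knockout and control arrays, also without overlap, with 0 past the threshold by limma (4 of the 5 at an unadjusted p under 0.05). The 7 measured hepatocyte markers summed to 46.7 to 57.2 in knockout arrays and 46.7 to 49.3 in control arrays, and 1 of the 7 was higher by limma. The 7 measured macrophage markers summed to 48.0 to 55.6 in knockout arrays and 36.4 to 57.2 in control arrays, with 0 past it by limma (0 also at an unadjusted p under 0.05). The 12 dissociation stress genes summed to 94.6 to 104 in knockout arrays and 89.9 to 104 in control arrays, and 0 passed by limma (1 at an unadjusted p under 0.05). All 12 had a knockout mean above the control mean, with a median difference of 0.32. The array scale has no 0 for an absent gene. The part of these cells in the ADAMTS differences was not tested.

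Within groups, the deviations of the 9 ADAMTS genes from their group means were compared with those of the 6 marker lists, 54 relations in all, by exact permutation of arrays within each group. After Benjamini-Hochberg adjustment over the 54, 0 passed by Pearson's r and 0 by Spearman's rho, and 6 and 4 had an unadjusted p under 0.05. The relation with the smallest Pearson p was that of Adamts5 with the stellate and fibroblast markers (r = 0.84 over 10 arrays, exact permutation p = 0.00556, adjusted 0.300). Its Spearman's rho was 0.82 (exact permutation p = 0.00854, adjusted 0.231), and its r was 0.67 without control replicate 1. Adamts13, named above as a stellate cell product, had r = 0.57 with the same list (exact permutation p = 0.101, adjusted 0.565). Without control replicate 1 the r of Adamts13 with the stellate list was 0.83. Its r farthest from 0 was with the hepatocyte markers (-0.82, exact permutation p = 0.0341, adjusted 0.375), and that was -0.24 without the 2 farthest arrays. With the macrophage markers its r was 0.43, and 0.73 without control replicate 1. By Spearman the smallest p was that of Adamts15 with the hepatocyte markers (rho = 0.67, exact permutation p = 0.00306, adjusted 0.165), where Pearson's r was 0.52 (exact permutation p = 0.0207, adjusted 0.375) and 0.50 without the 2 farthest arrays. For Adamts5 with the stellate and fibroblast markers, the 2 arrays farthest from the list median were knockout replicate 4 and control replicate 1. Without these 2 arrays, r of Adamts5 with that list was 0.53. With the stellate list mean as a covariate, added after the values were seen, the difference was 0.94 ± 0.18 for Adamts5 and 2.12 ± 0.15 for Adamts9. With the dissociation stress mean, Adamts9 differed by 2.13 ± 0.18, Adamts5 by 0.91 ± 0.31, Adamts4 by 0.66 ± 0.20 and Adamts1 by 0.42 ± 0.20. Against the 2 lists that separated the groups, Adamts9 had within-group r of -0.41 (neutrophil, exact permutation p = 0.309, adjusted 0.654) and -0.28 (cholangiocyte, exact permutation p = 0.520, adjusted 0.804).

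**Figure D4:**
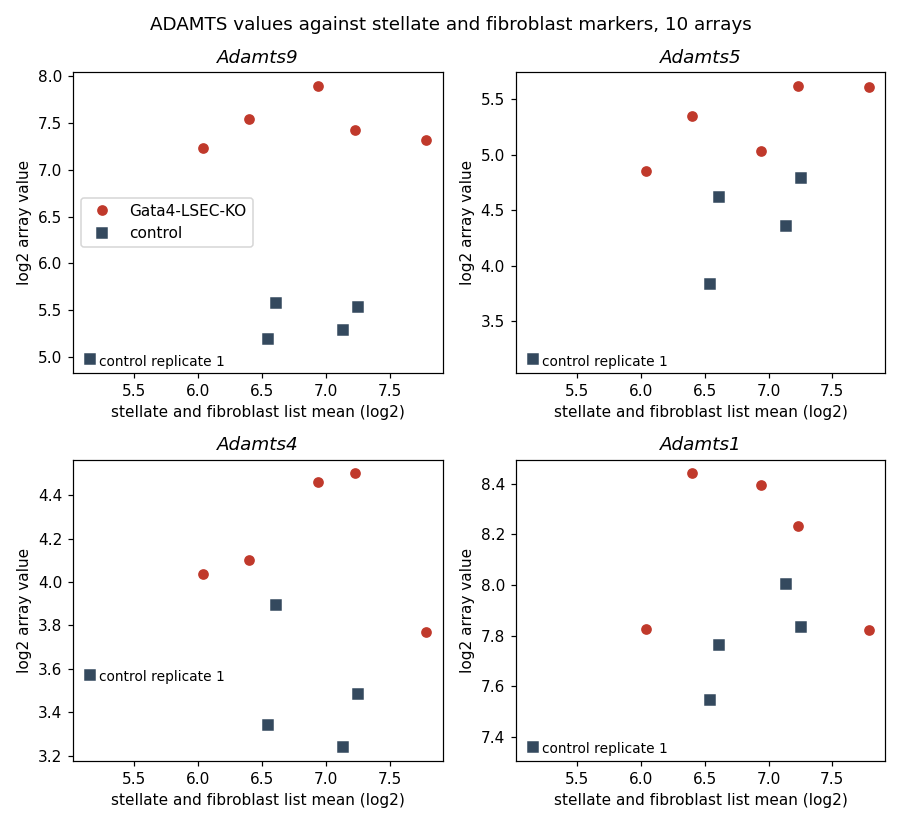
Log2 array values of Adamts9, Adamts5, Adamts4 and Adamts1 (vertical axes) against the mean log2 value of 15 stellate and fibroblast markers (horizontal axes), with 5 Gata4-LSEC-KO arrays as red circles and 5 control arrays as blue squares. All knockout values of Adamts9 lie above all control values. The marker means run from 6.04 to 7.78 in knockout and from 5.15 to 7.25 in control arrays, so the groups share only part of that axis. Control replicate 1 is lowest on both axes for Adamts9, Adamts5 and Adamts1.

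Genes with the most similar deviations from the group means over the 10 arrays were listed for the 3 largest differences, as a description. For Adamts9 they were the integrin chain gene Itga5 (r = 0.94, and 0.92 without control replicate 1), Shroom2 (0.93 and 0.91) and A230072I06Rik (0.93 and 0.90). For Adamts5 they were Mre11a (0.98 and 0.97), Cc2d2a (0.97 and 0.93) and Pot1a (0.96 and 0.91). For Adamts4 they were Trip12 (0.94 and 0.97), the perlecan gene Hspg2 (0.94 and 0.94) and Arhgef4 (0.94 and 0.95). None of the 9 passed the threshold between groups by limma, and the points share the same arrays. Each set was picked for the highest r among all 24704 genes, so neither value of r is support for a relation.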

How the data were processed

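Liver sinusoidal endothelial RNA was measured on 10 Affymetrix arrays, 5 per group, each from a pool of 3 mice. The authors' deposited values are log2 values made with RMA (no version stated), per the submitters' processing notes, and the array medians of 3.71 show arrays already brought to a common distribution. No source used here gives the array design, the probe locations or a genome build. Of 25428 probe sets, 24705 had 1 gene symbol and 723 none, and 1 symbol with 2 probe sets kept the brighter, which left 24704 genes. No further normalization and no filter on dim genes was applied.

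The limma package (3.58.1, under R 4.3.3; lmFit, eBayes) tested knockout against control, two-sided, with Benjamini-Hochberg adjustment over all genes and a threshold of 0.05. The procedure was tested on simulated data. P-values measure the spread between pools. The members and lists were chosen with earlier results of these data known. The text names every ADAMTS gene with a gene symbol here, and Gata4. From each pathway list it names at most 4 genes that passed, largest change first, or else the 2 smallest p. It also names the 3 nearest genes of 3 members. Same-numbered knockout and control arrays had correlations of deviations from -0.16 to 0.04, so the numbers were not taken as pairs. Marker relations used all 14400 within-group permutations and were added after the values were seen. Leaving out each array, a replicate block, array weights, an intensity trend, a filter on dim genes, group medians and 2 covariates were tried.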

Additional observations from a re-analysis of the deposited data

Results flagged for a closer look

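Of 74 groups of 5 arrays examined, for 37 genes named in the text, 5 held an array far from the other 4. Chance flags about 5% of such groups. Adamts7 read 4.58 in control replicate 1, against 5.65 in the nearest other control. Tll1 read 3.78 in knockout replicate 5 (nearest 4.20), and Thbs3 read 4.51 in the same array (nearest 3.77). Sdc4 read 5.64 in control replicate 3 (nearest 6.23). Dpy19l3 read 5.08 in control replicate 1 (nearest 6.35).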

How the results depend on the processing

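With each array left out, the difference of Adamts9 lay between 2.06 and 2.23. All 152 alternative values of the 9 ADAMTS differences moved by less than the spread between replicates. For most of them no other outcome was possible. Leaving out 1 array cannot shift a group mean by that much. The replicate block, the intensity trend and the filter on dim genes leave the difference itself unchanged. This count is therefore no measure of robustness. With each array left out in turn, differences near 0 took both signs, from -0.24 to 0.13 for Adamts7, -0.14 to 0.11 for Adamts10, -0.07 to 0.26 for Adamts13 and -0.07 to 0.06 for Adamts15. The count of ADAMTS genes called among the 9, a description only, was 2, with Adamts5 added, under array weights and, as 2 again, with the stellate and fibroblast list mean as covariate. It stayed at 1 with each array left out. Of the other 9 ADAMTS genes, 0 passed by limma where all 18 were tested. The filter on dim genes left 9 of the 18 in the test, so that setting says nothing of most of them. Over all genes the count was 529 in the main fit and 287 to 737 with 1 array left out. It was 275 with the replicate block and 1070 with array weights. With a list mean as covariate it was 530 for the stellate and fibroblast list and 199 for the dissociation stress list. Under array weights Adamts5 was thus added where more genes were called over the whole table, so that call says nothing particular to the family. Of the genes in the pathway lists, 4 to 12 passed with 1 array left out, 13 with array weights and 3 with the dissociation stress list mean. Under the replicate block the calls of F8 (adjusted p = 0.154 by limma) and Pcsk5 (0.0586) ended. Of 10 arrays, 0 correlated best with the array of the same number in the other group. The causes were not tested. Detection calls were not used here, so changes of genes near the array median are bounded only loosely.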
